A study of Mus musculus with 3 samples.

Results

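The killer-cell lectin-like receptor genes, whose symbols begin with Klr, encode surface receptors of natural killer (NK) cells and of some T cells. All 26 genes with such a symbol were taken from the 32285 genes counted, by symbol alone. They were followed through CD45+ leukocytes sorted from the islets of wild-type NOD mice, an inbred strain that develops autoimmune diabetes spontaneously. The mice were females of 15 to 16 weeks by the methods of the study (14 to 16 weeks by a figure legend), carried no added allele and received no agent. The data are 3 libraries, replicates 1, 2 and 3, each made from the islets of 2 to 3 pooled mice in 2 independent experiments. Which library belongs to which experiment is not given in the sources used here. The sample descriptions in the labels number replicates 1 and 3 under 1 shared code and replicate 2 under another, without saying what the code stands for, so no batch was compared. There is 1 condition, so every comparison is between classes of cells inside the same libraries, and p-values measure only the spread between these 3 pools.

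Klr receptors read signals that other cells display. CD94, the product of Klrd1, pairs with NKG2A (Klrc1) into an inhibitory receptor, or with NKG2C (Klrc2) into an activating one that signals through DAP12 (Tyrobp), and these pairs bind the nonclassical MHC class I molecule Qa-1b (H2-T23). NKG2D (Klrk1) is an activating receptor for stress-induced ligands and signals through DAP10 (Hcst). The Ly49 receptors (Klra genes) bind classical MHC class I, some Klrb1 receptors bind Clec2 proteins, and Klrg1 is an inhibitory receptor for cadherins. In mouse, the product of Klre1 pairs with that of Klri1 into an inhibitory receptor or with that of Klri2 into an activating one. On CD8+ T cells, NKG2 receptors are known to appear after antigen stimulation.

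By the GENCODE M21 annotation of GRCm38 (the assembly also called mm10), all 26 genes lie on chromosome 6. Without Klrg2 and Klrg1, the other 24 occupy chr6:128609227-131247362, the NK gene complex. Klre1 (chr6:129577905-129585827), Klrd1 (chr6:129591782-129598775), Klrk1 (chr6:129610323-129623864), Klrc3 (chr6:129639064-129643337), Klrc2 (chr6:129647496-129660689) and Klrc1 (chr6:129666015-129678973) are neighbours there, and these neighbours, without Klrc3, are the genes on which most results in CD8+ T cells turn. Bases upstream of the gene models of Klrk1 (250 bases, chr6:129623865-129624114), Klrc1 (250 bases, chr6:129678974-129679223), Klrc2 (157 bases, chr6:129660690-129660846) and Klrc3 (201 bases, chr6:129643338-129643538) are shown because the first 3 genes moved together between CD8+ T cells while Klrc3 was barely detected. They are on the minus strand of GRCm38.p6, are taken from RefSeq and read 5′ to 3′, and the capitals mark a match to the RUNX motif TGTGGTT.
Klrk1: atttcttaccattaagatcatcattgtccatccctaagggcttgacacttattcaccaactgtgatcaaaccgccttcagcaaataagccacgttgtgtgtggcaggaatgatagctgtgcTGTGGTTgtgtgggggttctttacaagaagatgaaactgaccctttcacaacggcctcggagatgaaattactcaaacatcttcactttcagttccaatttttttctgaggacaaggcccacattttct
Klrc1: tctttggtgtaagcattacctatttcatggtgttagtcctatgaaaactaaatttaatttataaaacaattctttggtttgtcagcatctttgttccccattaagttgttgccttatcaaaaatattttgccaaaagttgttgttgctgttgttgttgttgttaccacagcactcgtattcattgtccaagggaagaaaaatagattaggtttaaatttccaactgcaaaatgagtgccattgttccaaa
Klrc2: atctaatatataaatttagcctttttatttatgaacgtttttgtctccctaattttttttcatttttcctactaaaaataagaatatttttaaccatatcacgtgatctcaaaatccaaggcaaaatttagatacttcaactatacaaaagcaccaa
Klrc3: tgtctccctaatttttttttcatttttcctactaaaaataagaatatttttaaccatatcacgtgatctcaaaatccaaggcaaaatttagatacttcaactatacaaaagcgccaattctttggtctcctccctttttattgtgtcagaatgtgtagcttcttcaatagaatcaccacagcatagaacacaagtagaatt

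The Klrc2 and Klrc3 stretches shared a run of 116 aligned bases of which 115 were identical, with 1 gap. No comparable run was found between Klrc1 and Klrc2, whose best local alignment was 8 bases. In the 250 bases before each listed start, for 23 of the 26 genes and 28 starts, TGTGGTT was found on either strand at 3 starts (10.7%), of Klrk1, Klre1 and Klra1, against 4.40% of 32851 starts in the RefSeq table. The TCF/LEF motif ATCAAAG was found for Klra6 and Klra7 (3.21% of all starts held it). The T-box motif GGTGTGA (3.33% of all starts), the AP-1 motif TGANTCA (6.75%) and the ETS motif ACCGGAAG (1.72%) had no match, and no matches overlapped. A match is a description of letters only.

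The libraries held 5844, 9537 and 11566 cells with 33851381, 74775394 and 80806452 unique molecular identifiers (UMIs, the counted molecules). Of these cells, 26142 had at least 1000 UMIs and less than 10% mitochondrial UMIs, and 59 cell barcodes occurred in more than 1 library. Cells were placed in classes by raw UMIs of gate genes that are not Klr genes. CD8 T cells (3258) carried Cd3e, at least 2 UMIs of Cd8a and Cd8b1 together and no Cd4. They were split by whether a UMI of Pdcd1, which encodes the inhibitory receptor PD1, and of Tcf7, which encodes the progenitor-associated factor TCF1, was found. This gave 507 Pdcd1+Tcf7+, 594 Pdcd1+Tcf7-, 1205 Pdcd1-Tcf7+ and 952 Pdcd1-Tcf7- cells. CD4 T cells (6729) carried Cd3e and Cd4 and no CD8 UMI, NK cells (267) carried Ncr1 and no Cd3e, and gamma-delta T cells (508) carried Cd3e, at least 2 UMIs of Trdc and neither Cd4 nor Cd8b1. B cells (4258) served as a reference for free RNA. Median depth was 4278 to 10250 UMIs per cell over the libraries and T-cell classes except gamma-delta T cells, 3901.5 to 6638.5 in NK cells, 3941 to 6661.5 in gamma-delta T cells and 4357.5 to 6909 in the B-cell reference. A Pdcd1- or Tcf7- cell is one in which no UMI was found, at unequal depth, and may still express the gene. In each library, Tcf7- cells were shallower than Tcf7+ cells, both with and without Pdcd1. Without Pdcd1, median depth was 4278, 7055.5 and 5784 against 5426.5, 7591 and 6646 UMIs in replicates 1, 2 and 3.

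The gates were compared with lists of markers, which also hold the gate genes Ncr1 and Trdc. The 9 NK markers summed to 4500 to 7751 CPM (UMIs scaled to 1e+06 per class and library) in the NK gate, 720 to 1571 in the gamma-delta gate and 220 to 868 in the 4 CD8 T classes. They also summed to 3429 to 3903 CPM in the macrophage reference, where 7 of the 9 were at 0 and the sum came from Fcer1g and Tyrobp, adaptor genes that myeloid cells also express. Many cells of the NK gate held UMIs of genes that T cells also express. Whether these came from the NK cells themselves was not tested. A UMI of Trdc was present in 37.5%, 48.8% and 55.7% of the cells in the NK gate and a UMI of Cd3g in 44.3%, 36.6% and 34.0%. Some results on NK cells are therefore also given for the 88 cells without a UMI of Cd3d, Cd3g or Trdc, which need not be the purer NK cells. Ncr1, which defines the NK gate, was at 84.1, 22.5 and 19.1 CPM in the gamma-delta gate, so some results there are also given for the 456 cells without it. In the 4 CD8 T classes Ncr1 was at 0 to 0.884 CPM. Doublets were not removed, and 5 cells met both the CD8 T and the gamma-delta gate.

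The Klr genes differed widely in level and in the class that carried them. Summed over all 26 genes, the level was 3935, 3039 and 3499 CPM in NK cells, 964 ± 351 CPM (SD, n = 3) in gamma-delta T cells and 946 ± 194 CPM in Pdcd1+Tcf7- CD8 T cells. Next came Pdcd1+Tcf7+ (594 ± 142 CPM), Pdcd1-Tcf7- (433 ± 68.8) and Pdcd1-Tcf7+ cells (322 ± 10.9), then CD4 T cells (69.9 ± 5.64 CPM) and B cells (12.3 ± 5.74 CPM). Gamma-delta and Pdcd1+Tcf7- cells, neighbours in this order, lay within each other's spread. The counts are 3′ UMIs and are not divided by transcript length, so levels are compared between classes and not between genes. Of the 26 genes, 21 passed the filter on low counts over the 7 classes. Several passed only through NK or gamma-delta T cells and had to differ there, so the counts of called members below are descriptions and not support. Klrb1, Klrc3 and Klra3 (188, 35 and 28 UMIs in the classes) and 2 others, with under 20 UMIs each, did not pass.

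**Figure D1:**
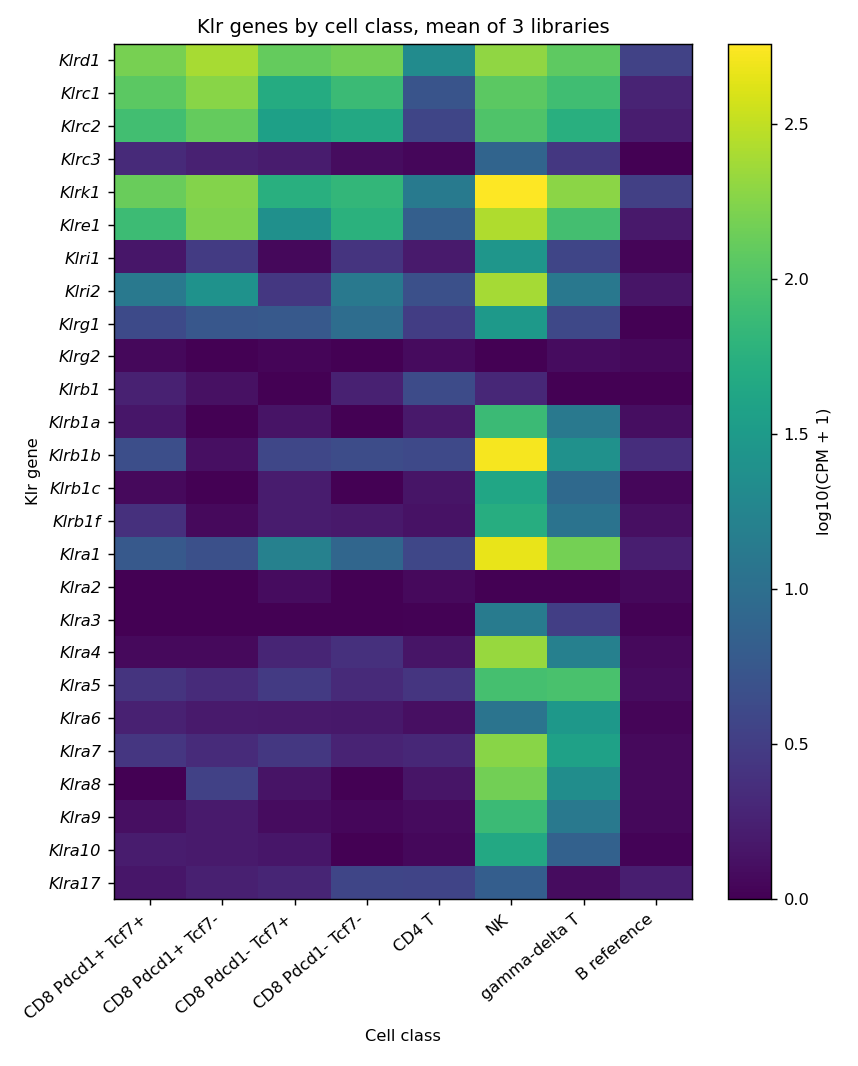
Heat map of the mean level over 3 libraries, as log10(CPM + 1), of the 26 Klr genes (rows) in 7 classes of lymphocytes and the B-cell reference (columns). Most Klra and Klrb1 genes are higher in the NK column than in the gamma-delta column, whereas Klra5 and Klra6 are not. Klrd1, Klrc1, Klrc2, Klrk1 and Klre1 are spread over NK, gamma-delta and CD8 T cells.

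CD8 T cells with a Pdcd1 UMI carried more NKG2 receptor RNA than those without. Klrc1, which encodes NKG2A, was at 140, 174 and 238 CPM in Pdcd1+Tcf7- cells of replicates 1, 2 and 3 and at 79.6, 108 and 157 CPM in Pdcd1+Tcf7+ cells. In cells without Pdcd1 it was at 80.9, 67.7 and 75.3 CPM (Tcf7-) and 46.3, 48.9 and 52.1 CPM (Tcf7+). Replicate 3 was the highest in both Pdcd1+ classes, and within each replicate except replicate 1 both Pdcd1+ values lay above both Pdcd1- values. The mean of the Pdcd1+ classes was higher by 1.14 ± 0.13 on the log2 scale (SE, adjusted p = 1.31e-06, edgeR quasi-likelihood test with Benjamini-Hochberg adjustment over all genes, here and below).

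Klrc2, encoding the activating NKG2C, followed the same order. It was at 126, 103 and 146 CPM in Pdcd1+Tcf7- cells, 81.5, 71 and 97.9 CPM in Pdcd1+Tcf7+ cells, 44.9 ± 11.1 CPM in Pdcd1-Tcf7- and 36.1 ± 6.32 CPM in Pdcd1-Tcf7+ cells. Pdcd1+ and Pdcd1- values did not overlap, and the difference was 1.24 ± 0.11 (log2, adjusted p = 1.2e-07). Reads from the 3′ ends of these genes can be hard to assign, since 30.6% of the 90-base words in the last 400 bases of Klrc1 transcripts also occur in Klrc2 and 6.88% of those of Klrc2 in Klrc1. Klrd1 and Klrk1 share no such word with another gene.

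Klrk1, which encodes NKG2D, was at 145, 128 and 257 CPM in Pdcd1+Tcf7- and 79.6, 107 and 209 CPM in Pdcd1+Tcf7+ cells. The Pdcd1- classes had 75.2, 44.7 and 79.9 CPM (Tcf7-) and 66.6, 38.5 and 56 CPM (Tcf7+). The Pdcd1+ values of replicate 3 stood above those of the other libraries, and the lowest Pdcd1+ value lay just under the highest Pdcd1- value. The difference was 1.25 ± 0.16 (log2, adjusted p = 6.05e-06).

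Klre1, which encodes a chain of the KLRE1 receptors, was at 158, 120 and 217 CPM in Pdcd1+Tcf7- cells, 71.2, 57.2 and 102 CPM in Pdcd1+Tcf7+ cells, 77.5, 34 and 59.4 CPM in Pdcd1-Tcf7- cells and 26.1, 20.5 and 23.4 CPM in Pdcd1-Tcf7+ cells. All 3 Pdcd1+Tcf7- values lay above all the others, and all 3 Pdcd1-Tcf7+ values below all the others. The difference by Pdcd1 was 1.53 ± 0.16 (log2, adjusted p = 5.41e-07). Its activating partner Klri2 was low and uneven, at 13.3, 41.1 and 19.2 CPM in Pdcd1+Tcf7- and 1.45, 2.67 and 1.21 CPM in Pdcd1-Tcf7+ cells, and rose by 1.79 ± 0.41 (log2, adjusted p = 0.00302). This call was lost without replicate 3 (1.31, adjusted p = 0.0745). The inhibitory partner Klri1 was at 0.859 ± 0.0523 CPM over all CD8 T cells.

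Klrd1, the CD94 chain shared by NKG2A and NKG2C, differed less. It was at 218, 257 and 277 CPM in Pdcd1+Tcf7- cells, 170, 142 and 147 CPM in Pdcd1+Tcf7+ cells, 142, 134 and 168 CPM in Pdcd1-Tcf7- cells and 112, 135 and 128 CPM in Pdcd1-Tcf7+ cells. The Pdcd1+Tcf7- values stood above all the others, and each of the other classes overlapped with at least 1 more. The difference by Pdcd1 was 0.37 ± 0.12 (log2, adjusted p = 0.0298), and the call was lost without replicate 2 (0.41, adjusted p = 0.0885) and without replicate 3. Klra1, a Ly49 gene, went the other way, at 18.8, 11.6 and 15.2 CPM in Pdcd1-Tcf7+ cells and at 1.1 to 7.96 CPM in the Pdcd1+ classes. The highest Pdcd1+ value, in Pdcd1+Tcf7- cells of replicate 1, lay above the Pdcd1-Tcf7- value of that replicate. Pdcd1+ and Pdcd1- values therefore overlapped. Klra1 fell by 1.67 ± 0.31 (log2, adjusted p = 0.000551), and without replicate 3 the adjusted p was 0.0575.

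In all, 7 of the 21 tested members were called by Pdcd1, 6 higher and 1 lower, where 16.9% of the 9694 genes tested were called (8.69% higher and 8.26% lower). The median log2 difference was 0.12 over the members and 0.02 over all genes. Without replicate 3, 4 members were called, namely Klrc1, Klrc2, Klrk1 and Klre1, beside 6.36% of all genes. The same 7 genes were called, beside 17.0% of all genes, when CD8 T cells with an Ncr1 UMI were left out. This left 579, 1218 and 1457 of the 581, 1219 and 1458 CD8 T cells, so it could change little. Other lineage markers moved with the same contrast. Of the 9 NK markers Eomes and Cd7 were higher and none lower, and of the 5 gamma-delta markers Tcrg-C2 and Tcrg-C4 were higher and none lower. The summed NK markers were at 655 to 868 CPM in Pdcd1+Tcf7- and 220 to 259 CPM in Pdcd1-Tcf7+ cells, and the summed gamma-delta markers at 103 to 161 and 18.6 to 36.2 CPM, and no gene of either list was at 0 in these classes. Of the terminal CD8 markers, 3 of 3 (Havcr2, Entpd1 and Lag3) were higher with Pdcd1. Of the 4 regulatory T-cell markers, Ctla4, Ikzf2 and Foxp3 were higher and none lower, and the list summed to 420 to 638 CPM (Tcf7+) and 515 to 577 CPM (Tcf7-) with Pdcd1 and to 164 to 386 and 161 to 382 CPM without. Of the 4 markers of type 1 innate lymphoid cells, Tnfsf10, Cxcr6 and Cd200r1 were higher and Il7r lower. Ccr7, Lef1 and S1pr1, genes known from naive and recirculating T cells, were lower with Pdcd1, by log2 differences of -0.68 ± 0.15 (adjusted p = 0.00177), -1.93 ± 0.14 (adjusted p = 2.7e-09) and -1.33 ± 0.14 (adjusted p = 5.41e-07). The part of these cell states in the Klr differences was not tested.

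**Figure D2:**
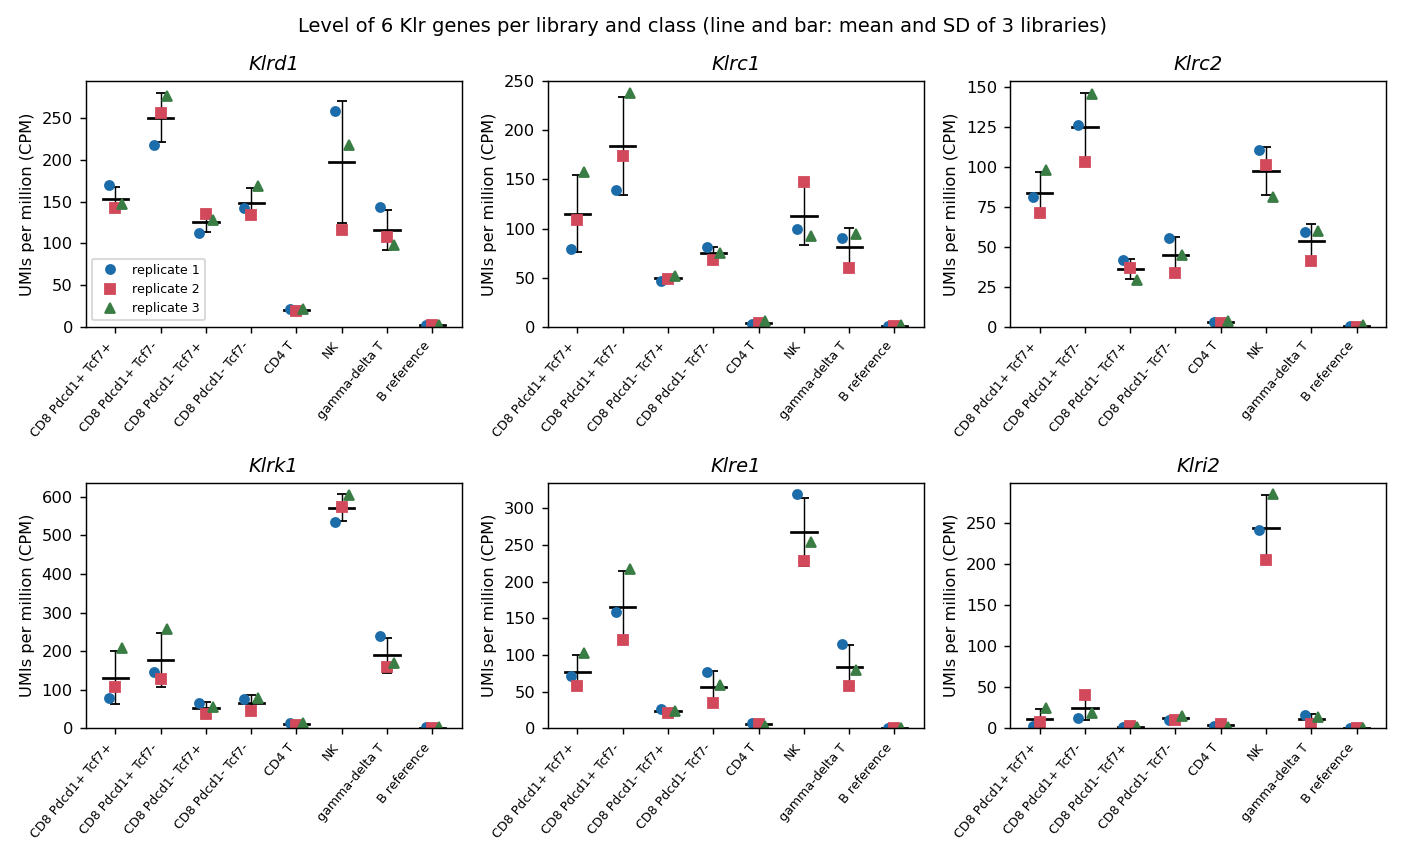
Level in CPM (vertical axis, from 0) of Klrd1, Klrc1, Klrc2, Klrk1, Klre1 and Klri2 in 7 classes and the B-cell reference. Points are the 3 libraries and bars the mean with SD. Within CD8 T cells the Pdcd1+Tcf7- class has the highest mean for each gene. Klri2 is at 205 to 285 CPM in NK cells and at most 41.1 CPM in any other class shown.

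Among Pdcd1+ CD8 T cells, those without a Tcf7 UMI carried more Klre1 and Klrd1. Klre1 was higher by 1.05 ± 0.21 (log2, adjusted p = 0.00873) and Klrd1 by 0.69 ± 0.16 (adjusted p = 0.0289), and both were higher in Tcf7- cells in 3 of 3 libraries. Klrc1 (0.63 ± 0.17) and Klrc2 (0.54 ± 0.15) had the same direction with an adjusted p of 0.0641 each, and Klrk1 (0.37 ± 0.21, adjusted p = 0.497) and Klri2 (0.85 ± 0.46, adjusted p = 0.458) were further from the threshold. The 2 calls among 21 members stand beside 1.85% of all genes called in this contrast (0.99% higher and 0.856% lower), with a median of 0.37 over the members and -0.01 over all genes. Without replicate 2 neither gene was called, and without replicate 3 only Klre1. Without the library as a block the count was 0, beside 0.196% of all genes. All 3 terminal CD8 markers were higher in the same contrast, and the gamma-delta marker Trdv4 was lower while Tcrg-C4 was higher. Lef1 (-1.30 ± 0.20, adjusted p = 0.000861), Ccr7 (-0.92 ± 0.21, adjusted p = 0.0221) and S1pr1 (-0.86 ± 0.20, adjusted p = 0.027) were lower. The part of these cell states in the Klre1 and Klrd1 differences was not tested.

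In CD8 T cells without a Pdcd1 UMI, 1 of 21 members was called between Tcf7- and Tcf7+ cells, beside 0.227% of all genes (0.196% higher and 0.0309% lower), and DESeq2 called 2, beside 0.33%. The edgeR call was Klre1, higher by 1.16 ± 0.24 (log2, adjusted p = 0.0398), and the call was lost without each replicate in turn (adjusted p 0.101 to 0.201) and without the block. Klrc1 differed by 0.54 ± 0.19 (adjusted p = 0.632) and Klrd1 by 0.20 ± 0.16 (adjusted p = 1). Klri2 had the widest difference of the members plotted (2.71 ± 0.66, adjusted p = 0.137). Median differences were 0.20 over the members and -0.01 over all genes. Lef1 (-0.14 ± 0.17), S1pr1 (-0.14 ± 0.19) and Ccr7 (-0.34 ± 0.20) were not called, so this split separated these state genes little.

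The test of whether the Tcf7 difference itself differed with Pdcd1 called 0 members and 0% of all genes, by edgeR and by DESeq2. At an unadjusted p under 0.05, edgeR gave 4 members (Klrb1b, Klrd1, Klri2 and Klra8), where 4.89% of all genes reached this level. Of these members, Klra8 had only 12 UMIs and Klrb1b 58 UMIs in all CD8 T cells. DESeq2 gave 2 members (3.97% of all genes). For Klrd1 the difference of differences was 0.48 ± 0.23 (log2, adjusted p = 1), for Klre1 -0.11 ± 0.32 and for Klrc1 0.09 ± 0.26.

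**Figure D3:**
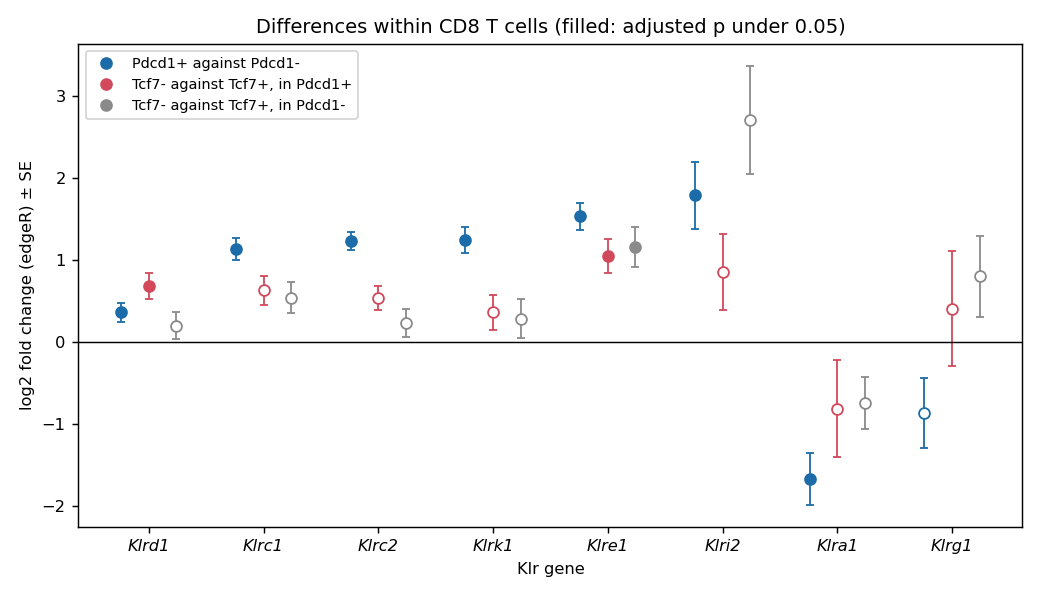
Log2 fold differences (vertical axis, with SE) of Klrd1, Klrc1, Klrc2, Klrk1, Klre1, Klri2, Klra1 and Klrg1 (horizontal axis) by a Pdcd1 UMI and by the lack of a Tcf7 UMI within Pdcd1+ and within Pdcd1- CD8 T cells. Filled points have an adjusted p under 0.05, which holds for 7 of the 8 genes in the first contrast, for Klre1 and Klrd1 in the second and for Klre1 in the third.

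Shares of positive cells gave the same order at a fixed depth. Median depth differed between the classes, from 5363 to 7735 UMIs per cell in Pdcd1+Tcf7- and 7598 to 10250 in Pdcd1+Tcf7+ cells to 5426.5 to 7591 in Pdcd1-Tcf7+ cells. Each cell was therefore thinned to 2000 UMIs, which left out 2 CD8 T cells and 16 B cells. Klrc1 was found in 26.5%, 23.2% and 32.5% of Pdcd1+Tcf7- cells, 14.9%, 21.7% and 24.7% of Pdcd1+Tcf7+ cells and 7.74% ± 0.627 of Pdcd1-Tcf7+ cells, against 0.0593% of B cells. The difference between the first and the last class was 19.7 ± 4.68 percentage points for Klrc1, 20.2 ± 6.0 for Klre1, 14.4 ± 8.53 for Klrk1 and 11.8 ± 2.66 for Klrd1. Each was positive in 3 of 3 libraries, with an exact two-sided permutation p of 0.25, the smallest that 3 pairs can give. Without thinning, Klrc1 was in 51.1% of Pdcd1+Tcf7- and 16.9% of Pdcd1-Tcf7+ cells, Klrk1 in 41.5% and 16.2%, Klre1 in 45.4% and 9.83%, and Klrd1 in 55.1% and 46.4%.

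The chains of a receptor were next compared cell by cell. Over thinned CD8 T cells, Klrd1 was found in 24.1%, 33.6% and 39.1% of the 464 cells with a Klrc1 UMI and in 23.8%, 21.2% and 20.5% of the 2792 without. The shares differed little in replicate 1 and by more in replicates 2 and 3 (10.4 ± 9.27 percentage points). Klrd1 was in 36.9% ± 4.92 of cells with Klrk1 and 21.2% ± 1.13 of cells without, and in 36.0% ± 3.32 and 21.8% ± 0.547 of cells with and without Klrc2. A UMI that was not found at this depth does not show that a chain was absent.

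The other NKG2 chains and Klre1 were also found more often beside Klrc1, in means over the libraries. Klrc2 was found in 37.8% ± 1.94 of cells with Klrc1 and 6.69% ± 2.14 of cells without, Klrk1 in 35.7% ± 5.71 and 9.54% ± 3.57, and Klre1 in 29.2% ± 6.13 and 8.03% ± 3.85. All these genes were higher with Pdcd1, so Klrc2 was also counted within classes. In Pdcd1+Tcf7- cells, Klrc2 was in 41.2% ± 6.39 of 166 cells with Klrc1 and 15.2% ± 2.23 of 428 without. In Pdcd1-Tcf7+ cells it was in 31.7% ± 4.41 of 91 and 4.70% ± 1.79 of 1114. For Klrd1 the difference seen over all CD8 T cells did not appear in every class. In Pdcd1+Tcf7- cells it was in 42.0% ± 6.19 of cells with Klrc1 and 28.3% ± 1.25 of cells without. In Pdcd1-Tcf7+ cells it was in 23.6% ± 9.66 and 19.97% ± 2.14, and in Pdcd1+Tcf7+ cells in 22.7% ± 13.9 and 22.96% ± 5.29. By Klrc2, Klrd1 was in 19.7% ± 5.66 and 20.3% ± 2.17 of Pdcd1-Tcf7+ cells. Sequence shared between the 3′ ends of Klrc1 and Klrc2 touches these values, while Klrk1 and Klre1 share none. These are descriptions over cells, and no test was made.

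**Figure D4:**
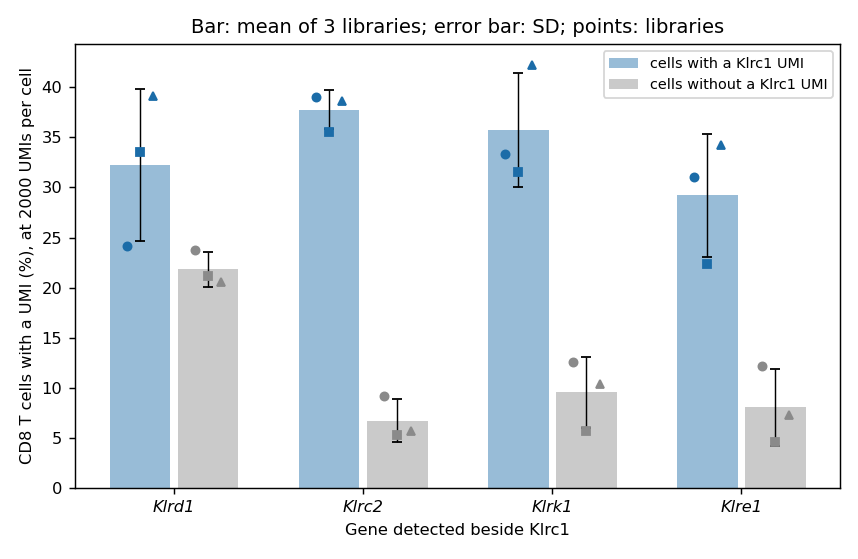
Share of CD8 T cells, thinned to 2000 UMIs, with a UMI of Klrd1, Klrc2, Klrk1 or Klre1 (vertical axis, percent), among cells with and without a Klrc1 UMI. Bars are means of 3 libraries with SD and points the libraries. Klrc2 is at 37.8% and 6.69%, while the Klrd1 bars (32.3% and 21.8%) lie closer together.

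CD4 T cells carried little Klr RNA. Klrc2 was at 2.14 to 3.32 CPM and Klrc1 at 3.2, 3.9 and 5.68 CPM in the 3 libraries, under every CD8 T value, and the B-cell mean was 0.682 CPM for Klrc2. In the sums of all cells of a class, CD8 T cells had 22.4 times the Klrc2 of CD4 T cells (95% exact interval 19.0 to 26.7, counting error only), 20.6 times the Klrc1, 13.0 times the Klre1, 8.04 times the Klrd1 and 7.92 times the Klrk1. In the fit these differences were 4.58 ± 0.16 for Klrc2 (log2, adjusted p = 8.16e-16), 4.51 ± 0.18 for Klrc1, 3.58 ± 0.20 for Klre1, 3.11 ± 0.15 for Klrd1 and 3.03 ± 0.20 for Klrk1. Klrd1 was at 21.4, 18.4 and 21.3 CPM in CD4 T cells, against 2.48 ± 0.106 CPM in B cells.

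Altogether 9 of 21 members were called between CD8 and CD4 T cells, 8 higher and 1 lower, beside 19.2% of all genes (8.11% higher and 11.1% lower). Median differences were 0.76 over the members and 0.01 over all genes. Klri2 (1.48 ± 0.36) and Klra1 (1.31 ± 0.26, adjusted p = 0.000726) were also higher in CD8 T cells, the former not called without replicate 3. Klrg1 was at 1.8, 7.19 and 7.04 CPM in CD8 T and 3.06, 1.62 and 1.92 CPM in CD4 T cells, so its CD8 T value of replicate 1 lay within the CD4 T values, and its call (1.52 ± 0.39, adjusted p = 0.00597) was lost without replicate 2 or 3. Klra17 was lower (-1.57 ± 0.52, adjusted p = 0.0342), with an adjusted p of 0.199 without the block. It did not pass the count filter in any of the fits without 1 replicate, so its call has no such check. DESeq2 called neither Klra17 nor Klrg1 here, and Klra17 was not among the calls without cells holding other-lineage UMIs.

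Among CD4 T cells, Klrg1 was higher in the regulatory fraction. It was at 7.95, 7.23 and 7.32 CPM in the 871 cells with a Foxp3 UMI, where 73 UMIs fell in 32 cells, and at 2.09, 0.294 and 0.644 CPM in the 5858 cells without, where 30 UMIs fell in 19 cells. The groups did not overlap, and Klrg1 was higher with Foxp3, the factor that defines regulatory T cells, by 3.28 ± 0.44 (log2, adjusted p = 0.0024). The share of thinned cells with Klrg1 was nonetheless 1.64% ± 0.514 and 0.308%, and no Klrg1 UMI was found in 4242 thinned B cells, which allows a share of up to 0.0707%. Without the block the Klrg1 call was lost.

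Klrd1 and Klre1 went the other way. Klrd1 was at 8.83, 10.7 and 10.5 CPM with Foxp3 and 23.9, 20.1 and 23.8 CPM without (-1.20 ± 0.15, adjusted p = 0.00137), and Klre1 at 0, 1.75 and 1.46 CPM with and 9.07, 7.17 and 4.26 CPM without (-2.20 ± 0.43, adjusted p = 0.0138). Neither gene's groups overlapped. Without the block the Klre1 call was lost too (adjusted p = 0.136), and that of Klrd1 was not (adjusted p = 0.0311). Klrk1 differed by -0.04 ± 0.26 (adjusted p = 0.957), with overlapping groups. In this fit 3 of 11 tested members were called, 1 higher and 2 lower, beside 9.44% of all genes (5.44% higher and 3.99% lower), and the median was -0.65 over the members and 0.01 over all genes.

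Among the classes, Klrb1 was found mainly in a few CD4 T cells. Of its 188 UMIs in the classes, 172 were in CD4 T cells and 148 of these in replicate 2, where they came from 29 cells, with 23 UMIs in the highest. The level in CD4 T cells was 2.33, 7.04 and 0.32 CPM in the 3 libraries. Klrb1 had 311 UMIs over all cells. Of these, 116 were in cells with a Cd3e UMI outside the classes and references, 103 of them in replicate 2.

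NK cells exceeded CD8 T cells in nearly every tested Klr gene other than Klrd1, Klrc1 and Klrc2. Klrd1 was at 259, 116 and 218 CPM in NK cells and 159, 156 and 169 CPM in all CD8 T cells, with overlapping groups and a difference of 0.05 ± 0.17 (log2, adjusted p = 0.893). In this and the following paragraphs on NK and gamma-delta T cells, Klr folds against CD8 T cells are from a fit with CD8 T cells as 1 sum per library, unless the planned fit is named. The fit with 1 sum was added after seeing the data, since several members were at 0 in a CD8 T class. Klrc1 was at 99.6, 147 and 92.4 CPM in NK cells (0.10 ± 0.20, adjusted p = 0.798) and Klrc2 at 111, 101 and 81.5 CPM (0.40 ± 0.15, adjusted p = 0.0881). A p that misses the threshold does not show equal levels. The pooled ratios of NK to CD8 T cells were 1.16 for Klrd1 (95% exact interval 1.03 to 1.31), 1.20 for Klrc1 (1.02 to 1.39) and 1.52 for Klrc2 (1.28 to 1.79). These intervals cover counting error only and not the spread between libraries, so they do not show a higher level in NK cells. In the planned fit, Klrd1 turned direction without replicate 1 (-0.18) and Klrc1 without replicate 2 (-0.19).

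Klrk1 was at 535, 573 and 605 CPM in NK cells, above every CD8 T value, and higher by 2.43 ± 0.17 (log2, adjusted p = 6.09e-08). A thinned NK cell had a Klrk1 UMI in 62.9% ± 4.91 of cases, against 23% ± 7.58 in Pdcd1+Tcf7- CD8 T cells and 0.315% in B cells. Klre1 was at 319, 229 and 254 CPM, higher by 1.75 ± 0.19 (adjusted p = 7.62e-06). Its partner Klri2 was at 242, 205 and 285 CPM and higher by 4.28 ± 0.27 (adjusted p = 2.47e-08), 21.5 times the CD8 T level in pooled UMIs (18.5 to 25). Klri1 was at 56.9, 9.94 and 14.1 CPM, with replicate 1 far above the others. Klrg1 was at 17.1, 13.3 and 59.5 CPM, and its higher level (2.21 ± 0.51, adjusted p = 0.00604) rested on replicate 3, since the planned fit against the mean of the CD8 T classes gave 1.47 with an adjusted p of 0.228 without it.

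Klrb1a, Klrb1b, Klrb1c and Klrb1f were higher in NK cells than in CD8 T cells, while Klrb1 had 2 UMIs in NK cells. Klrb1b, an inhibitory receptor for Clec2d, was at 586, 515 and 481 CPM in NK cells and at 4.49, 2.4 and 0.968 CPM in CD8 T cells. The pooled ratio was 241 (95% exact interval 185 to 321), and 58.1% ± 1.76 of thinned NK cells held a UMI against 0.124% of B cells. Klrb1a was at 45.5, 72.9 and 105 CPM, Klrb1c, which encodes NK1.1, at 51.2, 38.1 and 36 CPM, and Klrb1f at 62.6, 19.9 and 70.5 CPM. Each of the latter had 16 UMIs or fewer in all CD8 T cells. NOD mice are known to lack the NK1.1 epitope that the common antibody binds, which RNA does not show. Klrb1b shares 14.5% of its 3′ words with the gene model Gm44511.

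The Klra genes, the Ly49 receptors, were the other group of NK cells. Mouse strains differ in the number and identity of their Klra genes, and the NOD set is not that of the C57BL/6 reference to which the reads were aligned, so a count stands for reads that fitted a reference gene and near-identical genes cannot be told apart. Klra1 was at 561, 371 and 456 CPM in NK cells against 9.2, 8.26 and 9.5 CPM in CD8 T cells, a pooled ratio of 50.0 (43.2 to 58.1). Klra4 was at 302, 109 and 222 CPM, Klra7 at 262, 159 and 127 CPM and Klra8 at 148, 124 and 169 CPM, and none of these overlapped with the CD8 T values of at most 2.47 CPM. Klra9, Klra5 and Klra10 had means of 75.2, 87.6 and 45.7 CPM, and 20.6% of the 3′ words of Klra10 and 10.5% of those of Klra9 also occur in other Klra models. Klra3 had 20 UMIs in NK cells and 0 in CD8 T cells, which is at least 113-fold higher when the floor of 3 UMIs over the CD8 T cells is used. Klra17 was at 5.69, 9.94 and 1.57 CPM in NK cells and 1.14 CPM in CD8 T cells (2.35 ± 0.78, adjusted p = 0.0479), but the planned fit did not call it (adjusted p = 0.0558), and it had 0 UMIs in the 88 NK cells without a Cd3d, Cd3g or Trdc UMI.

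Ly49 RNA was spread unevenly over NK cells. After thinning to 2000 UMIs, no Klra UMI was found in 26.2%, 42.7% and 29.2% of NK cells, 1 Klra gene in 28.5%, 2 in 16.6% and 3 or more in 22.2% ± 5.78, with up to 6 in 1 cell. Of CD8 T cells, 98.1% had none.

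With the 4 CD8 T classes kept apart, 17 of 21 members were called between NK and CD8 T cells, all higher, beside 22% of all genes (11.5% higher and 10.5% lower). With CD8 T cells as 1 sum 20 of 23 were called, beside 18.8% (9.73% higher and 9.06% lower), with medians of 5.37 over the members and -0.05 over all genes. The members not called there were Klrd1, Klrc1 and Klrc2. In the 88 NK cells without a Cd3d, Cd3g or Trdc UMI, the Klra genes summed to 636, 579 and 997 CPM, against 1545, 994 and 1185 CPM in the whole gate. The Klrb1 genes summed to 911 ± 175 CPM there and 696 ± 49.8 in the whole gate, and the Klrc genes to 235 ± 49.9 and 218 ± 35.1 CPM. Of the 17 calls only that of Klra6 was lost with these cells, beside 12.4% of all genes called. Klra6 had no UMI in them, and in the whole gate the planned fit did not call it without replicate 2 (2.97, adjusted p = 0.117).

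**Figure D5:**
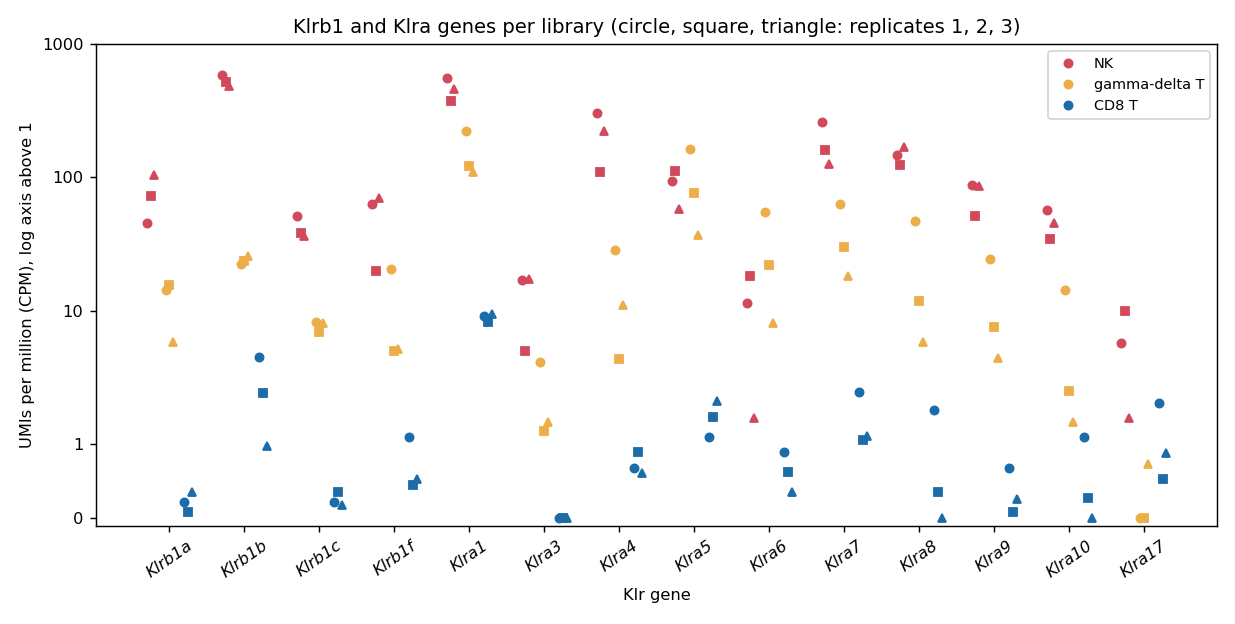
Level in CPM (symmetric log axis, linear near 0) of 4 Klrb1 genes and 10 Klra genes in each of 3 libraries of NK, gamma-delta T and CD8 T cells. NK cells are the highest for most genes, with Klrb1b at 481 to 586 CPM, while Klra5 overlaps between NK and gamma-delta T cells and Klra6 has its highest value in gamma-delta T cells.

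Gamma-delta T cells carried more Klrk1 and less Klrd1 than CD8 T cells as 1 sum. Klrk1 was at 240, 158 and 169 CPM, higher than in that sum by 0.89 ± 0.17 (log2, adjusted p = 0.00242). It was not above every CD8 T class, since in replicate 3 both Pdcd1+ classes had more Klrk1 than gamma-delta T cells. In the other libraries both had less. Klrd1 was at 144, 108 and 97.6 CPM, with a log2 difference of -0.60 ± 0.16 (adjusted p = 0.0258). In the planned fit, whose 4 CD8 T classes were kept apart, this call was lost without replicate 2 (-0.58, adjusted p = 0.0568) and without replicate 3 (-0.45, adjusted p = 0.213). Under the cell limits of the study, the planned fit called neither Klrk1 nor Klrd1. Klrc1 (90.2, 60 and 94.6 CPM), Klrc2 (59.5, 41.3 and 60.2 CPM) and Klre1 (115, 57.5 and 80 CPM) were not called, with log2 differences of -0.35 ± 0.18, -0.36 ± 0.14 and 0.12 ± 0.21.

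Their Ly49 and Klrb1 RNA was lower than in NK cells but far above CD8 T cells. The Klra genes summed to 623, 278 and 198 CPM, with replicate 1 the highest. Klra1 was at 224, 122 and 110 CPM (3.85 ± 0.17 above CD8 T cells, log2, adjusted p = 2.3e-09), and 1 cell held 50 of the 109 UMIs of replicate 1. Klrb1b was at 22.6, 23.8 and 25.7 CPM (3.40 ± 0.38, adjusted p = 1.85e-05). No Klra UMI was found in 65.3%, 76.3% and 80.7% of thinned gamma-delta T cells, and 3 or more Klra genes were found in 2.01%.

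Klra5 and Klra6 departed from the order of the other Ly49 genes. Klra5 was at 162, 76.9 and 36.7 CPM in gamma-delta T cells and 93.9, 111 and 58 CPM in NK cells, a pooled ratio of NK to gamma-delta T cells of 1.18 (95% exact interval 0.949 to 1.46). Klra6 was at 55.4, 21.9 and 8.07 CPM in gamma-delta and 11.4, 18.2 and 1.57 CPM in NK cells, a ratio of 0.475 (0.258 to 0.823). For comparison, the ratio was 3.40 for Klra1, 18.9 for Klra4 and 10.2 for Klra8. The difference between NK and gamma-delta T cells was not tested across libraries.

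Against CD8 T cells 14 of 21 members were called in gamma-delta T cells, 13 higher and 1 lower, beside 15.1% of all genes (8.53% higher and 6.53% lower). With CD8 T cells as 1 sum 15 of 23 were called, beside 11.8% (6.76% higher and 5% lower), with medians of 3.56 over the members and -0.03 over all genes. In the 456 cells without an Ncr1 UMI, the Klra sum was 338, 196 and 160 CPM and Klra1 was at 86.7 ± 5.91 CPM, and 13 of the 14 calls held, without Klra10. Of the 9 NK markers, 7 were higher in gamma-delta than in CD8 T cells and none lower. The 4 markers of type 1 innate lymphoid cells summed to 779 to 1165 CPM in gamma-delta and 393 to 423 CPM in CD8 T cells, and 3 of them (Cxcr6, Il7r and Cd200r1) were higher. The markers of invariant NKT and MAIT cells summed to 39 to 60 CPM against 0.898 to 1.67 CPM. That sum came from Zbtb16, which was higher, since Trav1 and Trav11, genes of the T-cell receptors that define those cells, were at 0 in gamma-delta T cells. The part of these markers in the Klr levels was not tested.

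Signalling partners were read from a list of 12 adaptor and kinase genes. Hcst (DAP10), the partner of NKG2D, was at 141, 191 and 209 CPM in CD8 T cells, 339, 333 and 290 CPM in NK cells and 287, 283 and 262 CPM in gamma-delta T cells, against 22.3 CPM in B cells. It was higher than in CD8 T cells by 0.63 ± 0.14 in NK cells (log2, adjusted p = 0.00126) and by 0.52 ± 0.13 in gamma-delta T cells (adjusted p = 0.00755). Tyrobp (DAP12), the partner of NKG2C, was at 34.8, 12.3 and 12.2 CPM in CD8 T cells, no more than in the B-cell reference (27.9 CPM) in 2 of 3 libraries, and at 919, 588 and 751 CPM in NK and 170, 73.8 and 52.1 CPM in gamma-delta T cells. In thinned CD8 T cells, Tyrobp was found in 1.57% ± 1.98 of cells with Klrc2 and 1.10% ± 0.49 of cells without. Hcst was found in 43.9% ± 7.95 of cells with Klrk1 and 28.4% ± 0.80 of cells without. In gamma-delta T cells Tyrobp was found in 21.1% ± 9.58 of the 48 cells with Klrc2 and 6.06% ± 1.80 of the 454 without. NK cells did not show this order. There Tyrobp was found in 64.2% ± 7.08 of the 48 cells with Klrc2 and 70.2% ± 3.53 of the 214 without.

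By Pdcd1, 2 of the 12 adaptors were higher, the kinases Zap70 (0.44 ± 0.10, adjusted p = 0.00211) and Fyn (0.53 ± 0.07, adjusted p = 1.36e-05), and 1 was lower, the T-cell receptor chain Cd247 (-0.46 ± 0.09, adjusted p = 0.00116), beside 8.69% of all genes higher and 8.26% lower. None was called in either Tcf7 contrast, where 1.85% (Pdcd1+) and 0.227% (Pdcd1-) of all genes were called, so 0 of 12 lies near those shares. Against CD4 T cells, 6 were lower in CD8 T cells and none higher (11.1% and 8.11% of all genes). In NK cells 5 were higher (among them Fcer1g, 6.07 ± 0.29, Tyrobp, 5.36 ± 0.25, and Syk, 2.01 ± 0.32) and 3 lower (Cd247, Lck and Fyn), beside 11.5% and 10.5% of all genes, and in gamma-delta T cells 5 were higher and 2 lower, beside 8.53% and 6.53%. By Foxp3, 1 was higher and 2 were lower, beside 5.44% and 3.99%.

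Of the 15 ligand genes on the list, 10 were tested in the fit of 7 classes. H2-T23, which encodes Qa-1b, was at 120, 157 and 154 CPM in CD8 T cells, 172 CPM in B cells and 246 CPM in the macrophage reference, so RNA for the ligand of the CD94 receptors was present in these cells too. No ligand was called by Pdcd1 or in either Tcf7 contrast, beside 16.9%, 1.85% and 0.227% of all genes. For the Tcf7 contrasts, 0 of 10 lies near those shares. In CD8 T cells, Cdh1, a cadherin that Klrg1 binds, was higher than in CD4 T cells by 1.97 ± 0.40 and H60b, a ligand of NKG2D, by 0.37 ± 0.10, and Clec2d was lower, so that 2 of 10 were higher and 1 lower beside 8.11% and 11.1% of all genes. In NK cells 2 ligands were higher and 3 lower, beside 11.5% and 10.5% of all genes, with a log2 difference of -0.40 ± 0.11 for H2-T23 (adjusted p = 0.00899). By Foxp3, 3 of 9 tested ligands were higher, among them H2-T23 (0.34 ± 0.08, adjusted p = 0.0245), beside 5.44% of all genes.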

How the data were processed

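Live CD45+ islet cells of 3 wild-type NOD libraries were profiled by 3′ single-cell RNA sequencing. The authors deposited counts: raw UMIs of every gene in every cell, made with Cell Ranger 6.0.1 on mm10, with no normalization, cell filter or annotation. No column of another sample was used. The Klr genes and all lists were chosen with earlier results of these data known.

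Cells with at least 1000 UMIs and under 10% mitochondrial UMIs were gated by raw UMIs as given in the report. UMIs were summed per library and class (at least 10 cells) and fitted together for 7 classes, and separately for CD4 T cells by Foxp3, with edgeR 4.0.16 in R 4.3.3 (filterByExpr, TMM, glmQLFit and glmQLFTest, library as a block, Benjamini-Hochberg over all genes, threshold 0.05), after the code was tested on simulated data. The methods of the study state no test between cell groups over libraries. Cells of every class in a library were taken from the same pooled mice, so libraries pair the sums. Between classes, deviations from class means gave correlations of 0.04 to 0.72 (mean 0.33) over 63 pairs of sums from the same library and -0.64 to 0.49 (mean -0.15) over 126 pairs from different libraries. The deviations of a class add up to 0 over its 3 libraries, so the second set is tied to the first and is no separate evidence of pairing. SE is the size of a fold divided by the square root of F. For shares, each cell was thinned to 2000 UMIs, and differences were compared by exact sign flips over libraries. Intervals are exact 95% intervals of pooled UMIs and cover counting error only, as does the floor of 3 UMIs. Doublets were not scored. Alternatives were DESeq2 1.42.0, no TMM, no count filter, no block, each library left out, the cell limits of the study, cells without other-lineage UMIs, without Ncr1 or in 1 gate only, and other thinning. Named genes are the members that passed the count filter, those under it with at least 20 UMIs in the classes, and genes of fixed lists of adaptors, ligands and markers. The list of naive T-cell markers is not reported as a list here. Tables were handled in python 3.11.15 with numpy 2.4.6, scipy 1.17.1 and pandas 2.3.3, and figures drawn with matplotlib 3.10.9.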

Additional observations from a re-analysis of the deposited data

Results flagged for a closer look

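Some members had most of their UMIs in kept cells outside the classes. These cells include the B-cell and macrophage references. Such members were Klra2 (86.5% of its UMIs), Klra17 (79.3%), Klri1 (51.9%) and Klra5 (51.0%). In cells outside the classes and both references that had no Cd3e UMI, these genes were above the B-cell reference in all 3 libraries. Klrg2 had 51.6% of its 31 UMIs in kept cells outside the classes, the references included. It was not above the B-cell reference in all 3 libraries. In the cells without a Cd3e UMI outside the classes and references, it had 0 UMIs in replicate 2. For Klra5, 326 UMIs were in 7588 cells with a Cd3e UMI and 171 in 3468 cells without, all outside the classes and references. Klra2 had 52 UMIs in all and was at 71.7, 9.89 and 19.4 CPM in the 71 cells of the macrophage reference. Outside the classes and references it had 20 UMIs in cells without a Cd3e UMI and 1 in cells with one.

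Klra17 and Klrd1 were high in cells gated, after their values were seen, by at least 2 UMIs of Siglech and none of Cd3e, Ncr1 or Cd79a. Siglech is a gene known from plasmacytoid dendritic cells. In these 70 cells (27, 17 and 26 in the libraries) Klra17 was at 353, 264 and 272 CPM (mean 296), with a UMI in 80% of the cells. Klrd1 was at 500, 527 and 519 CPM (mean 516), with a UMI in 84.3% of the cells, while Klrc1 had 4 UMIs, Klrc2 3 and Klra1 3. Tyrobp was at 3728 CPM and Hcst at 48.5 CPM on average. Cd3g was at 26.7 CPM and Trac at 7.07 CPM, and the median depth was 6321 to 13144 UMIs per cell. No test was made on cells chosen this way.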

How the results depend on the processing

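Of the values of single genes under all alternatives, 687 kept their direction and side of the threshold, 41 were tested but no longer called, 8 were newly called and 7 turned direction, and of the counts and share differences 91 kept within their limits and 30 moved. Calls lost because a gene did not pass the count filter are in none of these numbers. The tally holds the called members and some others, and Klre1 and Klri2 in gamma-delta T cells were not in it. None of the values that turned direction was past the threshold. They were Klrk1 by Tcf7 in Pdcd1+ cells (-0.14) and Klrd1 by Tcf7 in Pdcd1- cells (-0.0010) under the cell limits of the study, and, in NK against CD8 T cells, Klra6 (-4.25) and Klrd1 (-0.19) in NK cells without a Cd3d, Cd3g or Trdc UMI, Klrc1 without replicate 2 (-0.19) or without cells holding B-cell or macrophage UMIs (-0.0028), and Klrd1 without replicate 1 (-0.18). With each library left out, Klrc1 ranged from -0.19 to 0.43 and Klrd1 from -0.18 to 0.35 there. The cause was not tested.

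With each library left out, the members called were 4 to 7 by Pdcd1, 0 to 2 by Tcf7 in Pdcd1+ cells, 0 to 0 by Tcf7 in Pdcd1- cells and 3 to 5 by Foxp3, beside 6.36% to 18.1%, 0.315% to 2.20%, 0.0753% to 0.367% and 2.91% to 14.3% of all genes. The cell limits of the study, which keep fewer and shallower cells, gave 4, 0 and 0 for the first 3 (13.2%, 0.485% and 0.184% of all genes), 5 for CD8 against CD4 T cells (12.2%) and 8 for gamma-delta against CD8 T cells (11.2%), and some members did not pass the count filter there. Without the replicate block, 0 were called in either Tcf7 contrast (0.196% and 0.0619% of all genes) and 1 by Foxp3 (0.632%), and Klrd1 by Pdcd1 and Klra17 and Klrg1 between CD8 and CD4 T cells were lost. Without the count filter, 7 were called by Tcf7 in Pdcd1+ cells (1.97% of all genes), 2 in Pdcd1- cells (0.56%), 5 by Foxp3 (8.97%) and 1, Klri2, in the test of the difference of differences (0.232%). DESeq2 called 2 by Tcf7 in Pdcd1- cells (0.33%) and 7 between CD8 and CD4 T cells (18.6%), without Klra17 and Klrg1. Without TMM the median of all genes moved from 0.0185 to 0.168 by Pdcd1 and from -0.0426 to 0.132 in NK cells, and no member turned direction.

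Share differences varied with depth. The Klrc1 difference was 13.0 percentage points at 1000 UMIs, 34.2 without thinning and 24.4 under the limits of the study. Klre1 gave 10.2 at 1000 UMIs and 35.6 without thinning, Klrd1 7.71 and 8.69 (11.8 at 2000 UMIs), and Klrk1 25.3 without thinning. Klrd1 in cells with and without Klrc1 differed by 24.0 points, and with and without Klrk1 by 32.4, when cells were not thinned. Depth limits the shares, since a UMI that was not found is not absence, and the 82 to 97 NK cells of a library limit the Klra and Klrb1 values.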
